A study of Mus musculus with 6 samples.

Results

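The proteasome is the protease complex that degrades ubiquitin-tagged proteins, and this is an account of its subunit genes in the hippocampus of mice that received baicalin or saline under stress. The genes were taken by annotation: every row of the deposited gene table whose KEGG field names the proteasome pathway, which gave 46 of 32201 genes. Earlier results of these data were known when they were chosen. The mice were males of the inbred strain C57BL/6N, 8 weeks old, and all 6 libraries were from mice under chronic unpredictable mild stress, a changing schedule of mild stressors such as restraint, cage tilt and altered lighting that is used to model depression. Of these, 3 libraries were from mice given baicalin, a flavone glucuronide of the plant Scutellaria baicalensis, at 20 mg/kg, and the other 3 were from saline-treated mice. The unstressed control group named in the labels' protocol is not analysed here, so both groups carry the stress. Nothing in the labels says that the libraries came from separate animals, and p-values therefore measure the spread between these libraries, which may be technical.

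The catalytic 20S core is a stack of rings. Alpha subunits form the outer rings that gate entry, and beta subunits form the inner rings, where Psmb5, Psmb6 and Psmb7 carry the chymotrypsin-like, caspase-like and trypsin-like activities. The 19S regulatory particle caps the core: its base holds the ATPases that unfold and thread substrates together with ubiquitin receptors, and its lid holds the deubiquitinase that removes the ubiquitin chain. Interferon induces Psmb8, Psmb9 and Psmb10, which replace the constitutive catalytic subunits to make the immunoproteasome. In neurons the proteasome takes part in turnover of synaptic proteins. The 46 genes comprised 8 of the 20S alpha class, 7 constitutive 20S beta genes, 4 inducible or thymus-specific catalytic genes, 10 of the 19S base, 9 of the 19S lid, and 8 genes for activators, inhibitors, assembly and interferon gamma.

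Library totals were 61303274 to 64983755 counts with baicalin and 65989141 to 67957752 with saline. Markers of the tissue were present in every library, with summed levels of 5345 to 5673 CPM (counts relative to the scaled library size) for 4 neuronal genes. The summed level of 4 markers of CA pyramidal neurons was 723 to 840.1 CPM with baicalin and 851.4 to 1010 CPM with saline, without overlap, and 3 dentate granule cell markers gave 200.2 to 212 and 126.2 to 204.4 CPM. Fewer cells of a type and less RNA per cell cannot be told apart in bulk tissue. The part of these markers in the results below was not tested.

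Taken as a share of the library, the 46 genes held 0.379%, 0.380% and 0.384% of counts in the baicalin libraries and 0.362%, 0.358% and 0.353% in the saline libraries. All 3 baicalin libraries lay above all 3 saline libraries on this measure. As a share of summed FPKM (fragments scaled to exon length and library size) the values were 0.418%, 0.415% and 0.400% with baicalin and 0.405%, 0.403% and 0.390% with saline. On that scale the groups overlapped, with baicalin library 3 below saline libraries 1 and 2.

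No single proteasome gene passed the test. Testing needed a mean level of 1 FPKM or more, which 41 of the 46 reached, and 0 of these 41 had a Benjamini-Hochberg adjusted p below 0.05 in the quasi-likelihood test of edgeR, against 6 of 13153 genes, or 0.0456% (0.0152% higher with baicalin and 0.0304% lower). The smallest adjusted p among the members was 0.261. At an unadjusted p below 0.05, 12 members were higher with baicalin and 0 lower, against 6.34% and 5.46% of all genes tested. In 16 members the groups did not overlap, all with the baicalin libraries above, against 9.93% of all genes above and 9.52% below. Of the 41 log2 changes, which are baicalin minus saline, 36 were positive, against 49.8% of all genes, and the median was 0.09 beside -0.0006 over all genes. With libraries scaled to an equal sum of FPKM the split was 22 positive and 19 negative, against 29.8% positive over all genes. The medians were then 0.0077 over members and -0.08 over all genes. With this scaling 2 members were higher at an unadjusted p below 0.05 in edgeR, and the share of all genes was not computed. Without baicalin library 1, 2 or 3 in turn, 34, 34 and 32 members were positive, against 49.2%, 50.1% and 49.3% of all genes. Without saline library 1, 2 or 3 the counts were 35, 35 and 33, against 50.7%, 50.1% and 50.4%. The shifts were small: the largest was 1.19-fold. DESeq2 called 2 members higher, Psma2 (adjusted p = 0.0148) and Psma6 (adjusted p = 0.0160), where it called 0.974% of all genes higher and 0.632% lower. The limma fits called 0 members, against 8 of 13153 genes on log2(FPKM + 1) and 4 on log2(FPKM + 0.1).

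**Figure D1:**
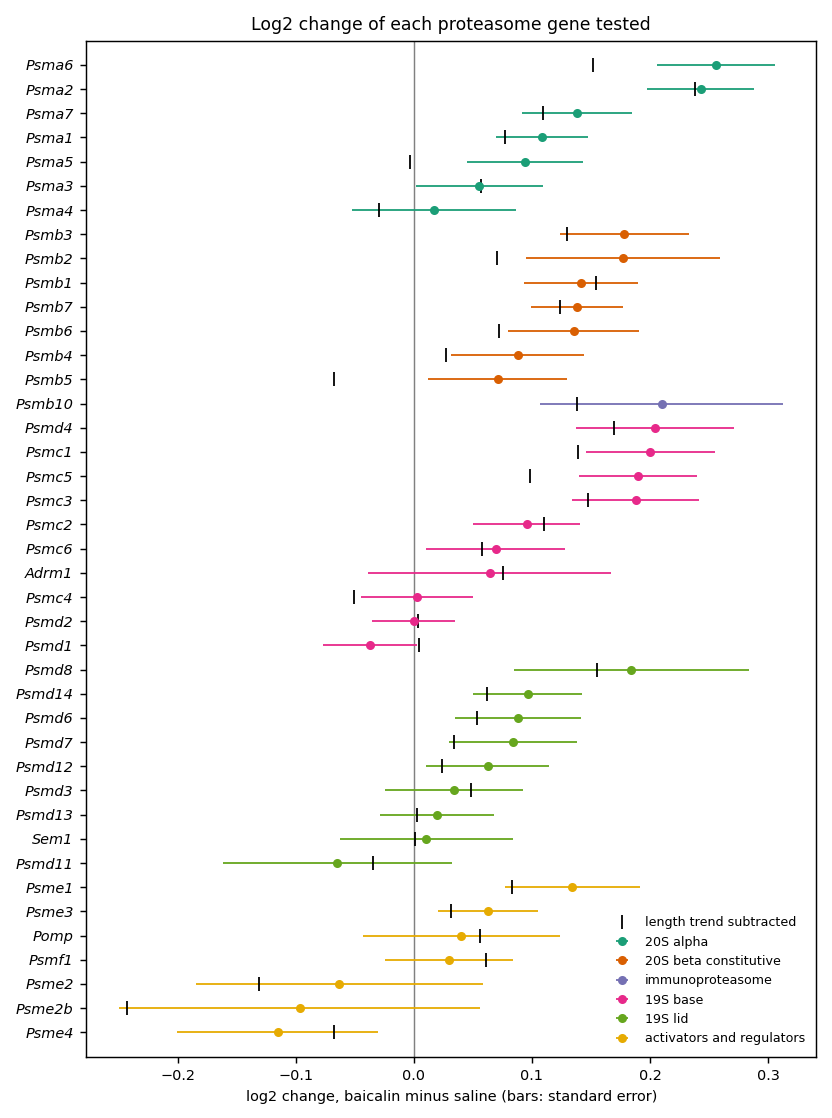
Log2 change, baicalin minus saline, of the 41 proteasome genes tested (horizontal axis), grouped by class, with bars for the standard error of edgeR's fit and a black tick where the trend on exon length is subtracted. The changes run from -0.12 for Psme4 to 0.26 for Psma6. All 14 constitutive 20S core genes lie to the right of 0 under TMM scaling, against 49.8% of all genes. With equal sums of FPKM 19 of the 41 genes lie below 0, where 29.8% of all genes lie above it.

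Promoter sequences of some members are shown because cells adjust proteasome genes together at transcription. The factors NFE2L1 and NFE2L2 act through antioxidant response elements, and interferon regulatory factors act through interferon-stimulated response elements. The 250 bases before the start site are given 5′ to 3′ on the gene's strand, from RefSeq on GRCm38.p6. Psma2 is shown as the member with the smallest p, Psmb5 and Psmb6 as constitutive catalytic genes, and Psmd4 as the base gene with the largest log2 change. Capitals mark matches on either strand to TGACNNNGC (antioxidant response element core), to the interferon-stimulated response element core, which is GAAA repeated after a gap of 2 bases of any kind, or to CCAAT, a box bound by nuclear factor Y.
Psma2, chr13:14612992-14613241, plus strand: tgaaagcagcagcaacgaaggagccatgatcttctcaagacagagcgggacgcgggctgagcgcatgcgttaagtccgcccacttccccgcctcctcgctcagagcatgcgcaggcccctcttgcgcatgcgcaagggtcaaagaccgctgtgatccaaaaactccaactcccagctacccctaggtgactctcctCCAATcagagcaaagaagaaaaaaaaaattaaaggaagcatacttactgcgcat
Psmb5, chr14:54617996-54618245, minus strand: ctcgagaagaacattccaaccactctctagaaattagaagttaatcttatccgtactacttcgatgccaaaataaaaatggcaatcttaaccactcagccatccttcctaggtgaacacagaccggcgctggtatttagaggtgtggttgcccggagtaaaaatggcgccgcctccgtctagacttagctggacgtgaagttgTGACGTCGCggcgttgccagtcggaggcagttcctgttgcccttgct
Psmb6, chr11:70525107-70525356, plus strand: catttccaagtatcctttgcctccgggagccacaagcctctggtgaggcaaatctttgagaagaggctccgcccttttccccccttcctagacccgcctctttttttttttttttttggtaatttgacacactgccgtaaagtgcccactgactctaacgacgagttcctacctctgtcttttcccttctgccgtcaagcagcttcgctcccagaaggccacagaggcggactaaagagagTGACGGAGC
Psmd4, chr3:95042615-95042864, minus strand: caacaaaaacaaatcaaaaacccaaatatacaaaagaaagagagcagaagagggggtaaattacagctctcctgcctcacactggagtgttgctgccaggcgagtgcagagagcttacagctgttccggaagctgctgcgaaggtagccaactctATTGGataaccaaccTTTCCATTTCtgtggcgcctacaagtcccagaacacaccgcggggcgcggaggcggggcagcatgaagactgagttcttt
Psmb5 and Psmb6 each held 1 match to TGACNNNGC, with its first base 47 and 9 bases before the start. Psmd4 held 1 match to the interferon-stimulated element core, with its first base 80 bases before the start. Promoters were found for 39 of the 46 members, 42 in all because some genes have more than 1 start. TGACNNNGC occurred in 11.9% of these and in 10.2% of all 32851 promoters of this length. The interferon-stimulated element core occurred in 2 of the 42 member promoters (4.76%), those of Psmb3 and Psmd4, and in 2.98% of all. The promoters of Psmb8, Psmb9, Psmb10, Psme1 and Psme2 held 0 matches to it. But windows follow RefSeq starts, which can differ from the deposited gene positions. The Psmb8 window, 34197945 to 34198194, lay inside the gene, which starts at 34197721. The Psmb9 window, 34187331 to 34187580, also lay inside its gene, which ends at 34187764. For Psmb10 it began at 105938393, beyond the gene's end at 105938104. An absence in these windows does not show that the genes lack the element. CCAAT occurred in 33.3% of member promoters and 33.8% of all. Members with TGACNNNGC were Adrm1, Psmb5, Psmb6, Psmc6 and Psmd12, whose log2 changes ran from 0.06 to 0.14. The shares for TGACNNNGC and CCAAT were near those of all promoters, and the share for the interferon-stimulated element core rests on 2 promoters. A match is a run of letters, not evidence of binding.

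Transcript levels differed more between subunits than between groups. Per length, the mean over the 6 libraries ran from 3.39 FPKM for Psme2b to 116.4 FPKM for Psmc5 among the genes tested, a 34.4-fold range. Class medians of the genes tested were 39.1 FPKM for constitutive 20S beta, 32.4 for the 19S base, 29.8 for 20S alpha, 22.8 for the 19S lid and 7.99 for activators and regulators. Highest in FPKM were the base ATPase Psmc5, the catalytic subunit Psmb5 (95.3 FPKM), the alpha-ring subunit Psma6 (79.6 FPKM) and the ATPase Psmc1 (78.2 FPKM). The lowest of the 19S genes in FPKM were the ubiquitin receptor Adrm1 and the lid scaffold Psmd11, each at 6.58 FPKM. This order depends on the exon length annotated for each gene. Psmb1 (4595 bp) was at 22.1 FPKM, below Psmb5 (899 bp), but was above it in CPM. Means were 122.8 CPM with baicalin and 111.3 with saline for Psmb1, and 101.2 and 96.4 CPM for Psmb5. Levels were close between libraries of a group: the median coefficient of variation over the 41 genes was 4.29% with baicalin and 3.03% with saline.

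**Figure D2:**
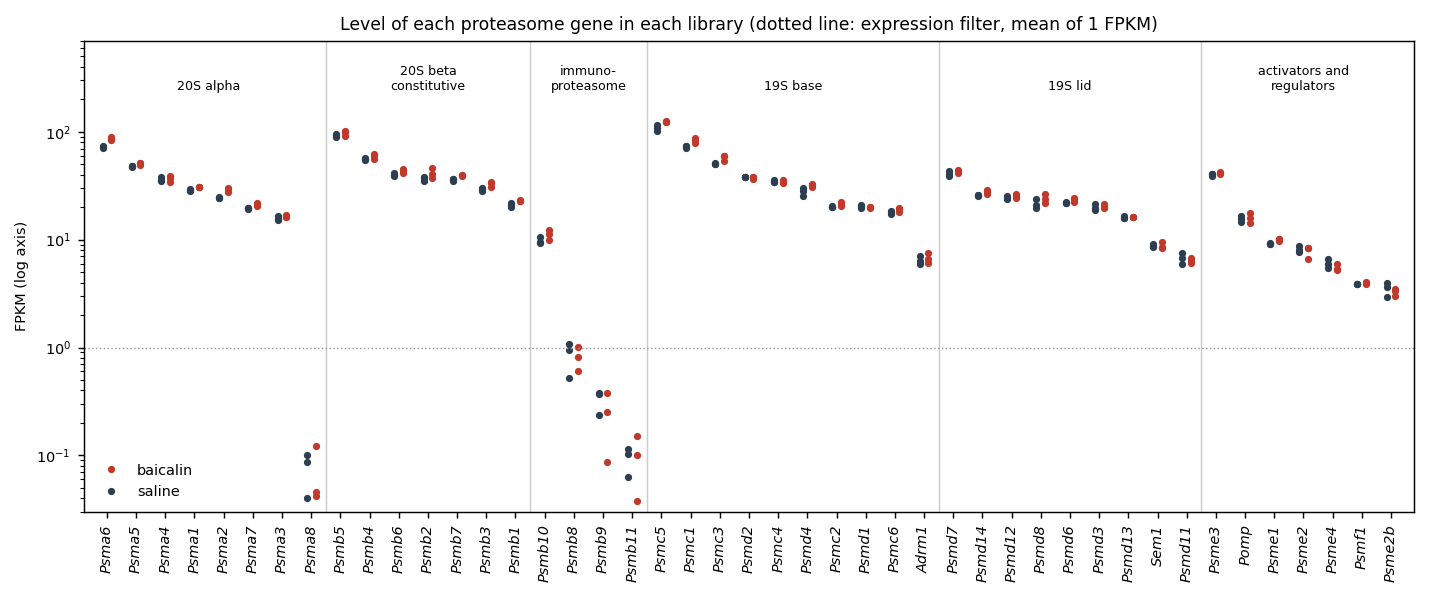
FPKM of each proteasome gene in each library (log axis), grouped by class and ordered by mean level, with baicalin in red, saline in dark blue and Ifng, at 0 in every library, left out. Mean levels of the genes tested run from 3.39 to 116.4 FPKM, while Psma8, Psmb8, Psmb9 and Psmb11 lie below a mean of 1 FPKM.

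The log2 change was positive in all 7 alpha-ring genes tested (median 0.11), against 49.8% of all genes. The groups did not overlap in 5, with baicalin above, against 9.93% of all genes. With equal sums of FPKM the median was 0.031 and Psma3 and Psma4 were negative, where 29.8% of all genes were positive. With the length trend subtracted 5 of 7 were positive, against 48.8% of all genes. Psma2, on chromosome 13 (14613240 to 14674236, ENSMUSG00000015671), encodes an alpha-ring subunit. Its level was 117.6, 126.0 and 126.2 CPM in the baicalin libraries and 102.4, 104.5 and 105.7 CPM in the saline libraries. Every baicalin library was above every saline library, and the log2 change was 0.24 ± 0.045 (SE; unadjusted p = 0.00125 and adjusted p = 0.261 in edgeR). AW209491 overlaps it on the same strand, with 21.1% of its counts and a log2 change of 0.09. Psma6, on chromosome 12 (55384222 to 55418454, ENSMUSG00000021024), stood at 119.4, 120.3 and 130.6 CPM with baicalin and 105.9, 102.1 and 102.1 CPM with saline. The groups were apart here too, with baicalin library 3 highest, and the log2 change was 0.26 ± 0.050 (unadjusted p = 0.00160, adjusted p = 0.281 in edgeR), or 0.15 with the length trend subtracted.

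Psma7 had a mean of 75.8 ± 1.89 CPM in the baicalin group against 68.9 ± 1.21 CPM (SD, n = 3 each), a log2 change of 0.14. Psma1 averaged 105.4 ± 0.464 and 97.8 ± 1.77 CPM, a log2 change of 0.11. Psma5, at 0.09, also had groups that did not overlap, but its value was -0.0032 with the length trend subtracted. Psma4 (0.02 ± 0.070) and Psma3 (0.06 ± 0.054) overlapped between groups, and Gm13835, whose transcript lies wholly within the sequence of Psma3 and had 9629 counts beside 28139, makes the Psma3 value uncertain. Psma8, the testis-specific alternative to Psma7, had 8 to 23 counts per library and was not tested.

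The 7 constitutive beta genes likewise all had positive values (median 0.14), against 49.8% of all genes. In 3 the groups did not overlap, with baicalin above, against 9.93% of all genes. The median was 0.060 with equal sums of FPKM, beside -0.08 over all genes, and 0.072 with the length trend subtracted. Psmb5 was negative in both settings. Psmb7, which encodes the trypsin-like subunit, stood at 154.1, 154.3 and 159.3 CPM with baicalin and 142.3, 144.5 and 138.2 CPM with saline. Its baicalin libraries were all above its saline libraries, with a log2 change of 0.14 ± 0.039 (unadjusted p = 0.00980, adjusted p = 0.335 in edgeR). Nek6 overlaps Psmb7 on the opposite strand, with 36.9% of its counts and a log2 change of 0.26, and the reads of the 2 genes may not be separable. Psmb3, a structural subunit, stood at 82.4, 91.1 and 89.3 CPM against 78.9, 76.0 and 77.4 CPM, also without overlap, and its log2 change was 0.18 ± 0.055. Psmb1, another non-catalytic subunit, averaged 122.8 ± 3.16 and 111.3 ± 4.997 CPM and did not overlap (0.14 ± 0.048).

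The catalytic genes Psmb6 and Psmb5 overlapped between groups. Psmb6 stood at 89.1, 95.6 and 98.5 CPM with baicalin and 83.6, 89.2 and 85.0 CPM with saline, where baicalin library 1 was just under saline library 2. Its log2 change was 0.14 ± 0.056, or 0.07 with the length trend subtracted. Psmb5 stood at 94.5, 102.1 and 107.1 CPM against 98.2, 98.0 and 93.0 CPM, a log2 change of 0.07 ± 0.059, which was -0.07 with the length trend subtracted. Psmb2 (0.18 ± 0.082) and Psmb4 (0.09 ± 0.056) overlapped as well, and with that trend subtracted their values were 0.07 and 0.03.

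Inducible catalytic genes were low, apart from Psmb10. Psmb8 stood at 1.02, 0.606 and 0.824 FPKM in the baicalin libraries and 0.516, 0.951 and 1.08 FPKM in the saline libraries, which rest on 107 to 230 counts each. Psmb9 had 69, 105 and 23 counts with baicalin and 67, 106 and 106 with saline, and the low value was in baicalin library 3. The ranges of both genes overlapped between groups, and neither reached the mean of 1 FPKM needed for testing. Without that filter edgeR gave log2 changes of -0.05 for Psmb8 (unadjusted p = 0.879) and -0.44 for Psmb9 (unadjusted p = 0.397). Psmb9 shares its locus with Tap1 on the opposite strand, which had 237% of its counts, and no source used here says whether counting used strand. Psmb10 was more abundant, at 10.03, 12.4 and 11.3 FPKM with baicalin and 9.48, 10.6 and 9.27 FPKM with saline. Baicalin library 1 lay within the saline range, and the log2 change of Psmb10 was 0.21 ± 0.103 (unadjusted p = 0.0834, adjusted p = 0.468 in edgeR), or 0.14 with the length trend subtracted. Psmb11, the thymus-specific catalytic gene, had 14 to 51 counts per library, and Ifng, which encodes interferon gamma, had 0 counts in every library.

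Each inducible gene was set against the constitutive gene whose product it replaces, per length and within each library. In FPKM, Psmb8 was 0.543% to 1.2% of the Psmb5 level and Psmb9 was 0.194% to 0.934% of the Psmb6 level. Psmb10 was 25.7% to 31.5% of the Psmb7 level. These shares depend on merged exon length, which was 1705 bp for Psmb10 and 3421 bp for Psmb7. In CPM the means of Psmb10 and Psmb7 were 22.2 and 155.9 with baicalin and 19.2 and 141.7 with saline. Psmb8 (3381 bp) and Psmb9 (3660 bp) instead had longer exons than Psmb5 (899 bp) and Psmb6 (1872 bp). The mean log2 ratio of Psmb8 to Psmb5 was -6.93 ± 0.44 in the baicalin group and -6.85 ± 0.60 in the saline group (SD, n = 3; two-sided exact permutation p = 0.900). For Psmb9 to Psmb6 it was -7.74 ± 1.13 and -6.96 ± 0.35 (exact permutation p = 0.300), and for Psmb10 to Psmb7 -1.81 ± 0.15 and -1.88 ± 0.083 (exact permutation p = 0.700). Adjusted over the 3 ratios every p was 0.900. A comparison of 3 libraries with 3 cannot give an exact p below 0.1, so the design could not pass 0.05, which limits what these ratios can show. Microglia can express the immunoproteasome, and the summed level of 7 microglial markers overlapped between groups, at 281.9 to 315.9 CPM with baicalin and 281.1 to 301.5 CPM with saline, with 0 of 7 at 0.

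**Figure D3:**
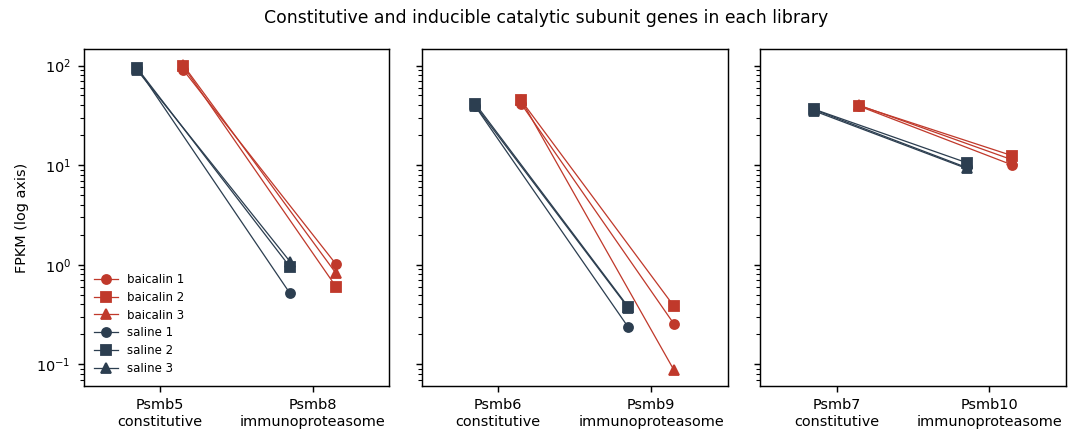
FPKM (log axis) of the constitutive catalytic genes Psmb5, Psmb6 and Psmb7 and of the inducible gene that replaces each, with 1 line per library. Psmb8 and Psmb9 lie far below their partners in all 6 libraries. Psmb10 lies between 25.7% and 31.5% of Psmb7 in FPKM, and the groups overlap at Psmb8, Psmb9 and Psmb10.

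In the 19S base, 6 ATPase genes were tested. All 6 had positive log2 changes, against 49.8% of all genes, and the groups did not overlap in 4, with baicalin above, against 9.93%. But Psmc4 and Psmc6 were negative with equal sums of FPKM, where 29.8% of all genes were positive. That scaling put the median of all 10 base genes at 0.0036, from 0.08. Psmc5 stood at 123.9, 124.8 and 122.7 FPKM in the baicalin libraries, which were nearly equal, and at 109.2, 115.0 and 102.9 FPKM in the saline libraries. It had a log2 change of 0.19 ± 0.050 (unadjusted p = 0.00748, adjusted p = 0.324 in edgeR), or 0.10 with the length trend subtracted. Psmc1 stood at 194.6, 173.3 and 191.4 CPM against 164.7, 157.7 and 164.3 CPM, with no overlap and a log2 change of 0.20 ± 0.054. Psmc3 stood at 179.1, 160.9 and 181.0 CPM against 153.0, 153.0 and 151.5 CPM, again with no overlap (0.19 ± 0.054); Slc39a13 overlaps it on the opposite strand with 11.2% of its counts. In both of these genes baicalin library 2 was the lowest of its group. Psmc2 was apart by a smaller margin (0.10 ± 0.045), while Psmc6 (0.07 ± 0.059) and Psmc4 (0.0027 ± 0.048) overlapped, and the sign for Psmc4 was negative in 8 of 16 alternatives.

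Among non-ATPase base genes, Psmd4, whose product is a ubiquitin receptor, stood at 107.0, 103.8 and 101.9 CPM with baicalin and 97.2, 82.6 and 91.7 CPM with saline. The groups did not overlap, with a log2 change of 0.20 ± 0.067 (unadjusted p = 0.0200, adjusted p = 0.369 in edgeR). The large scaffold genes Psmd2 and Psmd1 had 0.00 ± 0.035 and -0.04 ± 0.040, and Adrm1, another ubiquitin receptor, had 0.06 ± 0.103. For Psmd2 the standard error was the smallest of all members. Gm9774 shares 1235 of its 1362 runs of 31 bases with Adrm1 and had 6242 counts beside 13075, so reads of Adrm1 could be split or counted again.

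The lid holds the deubiquitinase and its scaffold. Of 9 lid genes, 8 had a positive log2 change (median 0.06, but -0.014 with equal sums of FPKM), 0 had an unadjusted p below 0.05, and the groups did not overlap in 1, near the 9.93% of all genes. That gene was Psmd14, which encodes the deubiquitinase of the lid, at 93.6, 90.3 and 86.9 CPM with baicalin and 84.9, 83.4 and 85.0 CPM with saline. Its log2 change was 0.10 ± 0.047 (unadjusted p = 0.0796, adjusted p = 0.463 in edgeR), or 0.06 with the length trend subtracted. Psmd8 had the largest log2 change, 0.18 ± 0.099, but ranged from 78.0 to 95.4 CPM with baicalin and from 69.1 to 83.5 CPM with saline, and the ranges overlapped. Psmd6 (0.09 ± 0.053) and Psmd7 (0.08 ± 0.054) overlapped too, and the scaffold gene Psmd11 was at -0.06 ± 0.097. Psmd13 (0.02 ± 0.048) overlaps Sirt3 on the opposite strand, which had 78.1% of its counts. The processed pseudogene Gm15542 overlaps Psmd13 on the same strand and had 78.8% of its counts, so the Psmd13 value is uncertain.

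Activator and regulator genes had 4 positive and 3 negative log2 changes (median 0.03), where 49.8% of all genes were positive. With equal sums of FPKM their median was -0.048, beside -0.08 over all genes. Psme1, which encodes the alpha subunit of the PA28 activator that opens the core, stood at 25.8, 26.0 and 25.3 CPM with baicalin and 23.4, 23.3 and 23.6 CPM with saline. The groups did not overlap and each was tight, with a log2 change of 0.13 ± 0.057 (unadjusted p = 0.0532, adjusted p = 0.430 in edgeR), or 0.08 with the length trend subtracted. Emc9 overlaps Psme1 on the opposite strand with 72.4% of its counts and a log2 change of 0.15. Psme2, which encodes the partner beta subunit, stood at 13.4, 17.0 and 17.5 CPM against 16.4, 15.7 and 17.9 CPM and overlapped (-0.06 ± 0.122). Psme2b, a near copy of Psme2, was at -0.10 ± 0.153, and reads of these genes could be counted at either.

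Psme3, the gene of the nuclear activator PA28 gamma, was the most abundant activator at 40.8 FPKM and had 0.06 ± 0.043. Psme4, which encodes the large activator PA200, stood at 58.0, 51.5 and 51.7 CPM with baicalin and 53.2, 58.2 and 63.2 CPM with saline, and had the lowest log2 change of the members, -0.12 ± 0.085. It is also the member with the longest exons, 8382 bp. The inhibitor gene Psmf1 (0.03 ± 0.054) was apart between groups by a small margin, at 29.2 to 29.9 CPM against 28.7 to 29.0 CPM, and the assembly factor gene Pomp (0.04 ± 0.084) overlapped.

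The classes were then set side by side in each library, as the mean over a class of log2 CPM relative to the mean over all libraries. For 20S alpha the means were 0.07, 0.03 and 0.10 in the baicalin libraries and -0.06, -0.07 and -0.06 in the saline libraries. For constitutive 20S beta they were -0.0089, 0.09 and 0.12 against -0.07, -0.03 and -0.10. For the 19S base they were 0.05, 0.0096 and 0.09 against -0.03, -0.04 and -0.07. In these 3 classes the baicalin libraries all lay above the saline libraries, with baicalin library 3 highest. As shares of summed FPKM, 20S alpha still did not overlap, at 0.0851%, 0.0828% and 0.0818% against 0.0802%, 0.0789% and 0.0785%, with baicalin library 3 lowest of its group. On that scale 20S beta overlapped, at 0.1001%, 0.107% and 0.102% against 0.101%, 0.103% and 0.0973%. The 19S base overlapped too, at 0.139%, 0.133% and 0.129% against 0.1297%, 0.13% and 0.125%. For the 19S lid the means were 0.02, 0.0053 and 0.06 against 0.01, -0.03 and -0.08, and saline library 1 lay within the baicalin range. Activators and regulators overlapped, at -0.0105 to 0.02 against -0.05 to 0.03. Differences between classes were not tested, since the classes share libraries and their genes are not replicates.

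**Figure D4:**
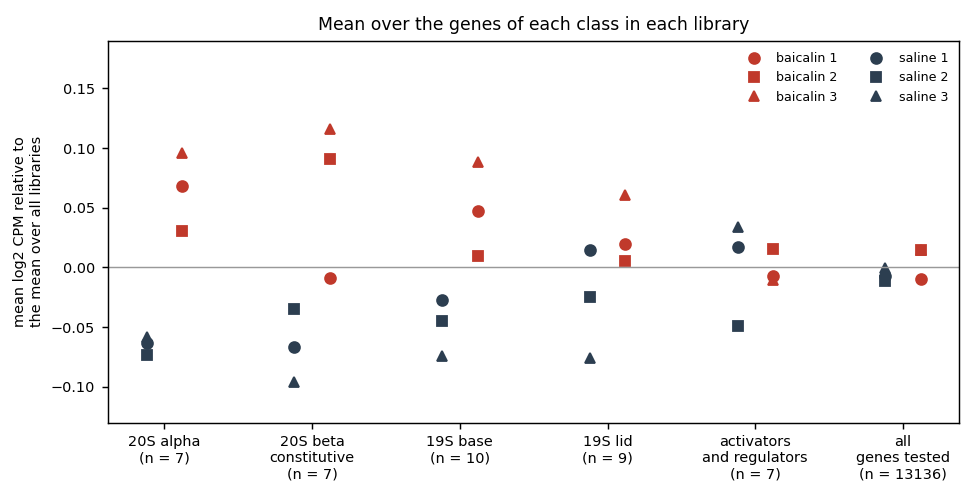
Mean log2 CPM over the genes of each class, relative to the mean over all 6 libraries (vertical axis), for each baicalin (red) and saline (dark blue) library, with marker shape for the library number. Under TMM scaling the groups are apart for 20S alpha, 20S beta and the 19S base, of which 20S beta and the base overlap as shares of summed FPKM, and they overlap for the 19S lid, for activators and regulators and for all genes tested.

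Log2 changes followed exon length across the whole transcriptome, and proteasome genes are short. All genes tested were put in 5 equal bins of merged exon length, and the median was 0.11 for genes up to 1916 bp and -0.07 for the longest. The median length was 2820 bp for the 41 members and 4098 bp for all genes tested. Of the members, 9 fell in the shortest bin (median 0.14), 16 in the next (0.10 against 0.03 for all genes there), 9 in the middle bin (0.06 against -0.0019), 6 in the fourth (0.03 against -0.03) and 1, Psme4, in the longest. All 16 members of the bin from 1917 to 3347 bp and all 9 of the middle bin had positive values, where 61.4% and 49% of all genes did. In the shortest bin 7 of 9 members were positive, near the 71.6% of all genes there, in the fourth 4 of 6 against 39.3%, and in the longest 0 of 1 against 27.8%. With the length trend subtracted, 33 of 41 members were positive, against 48.8% of all genes, and the median was 0.06. By class that median was 0.08 for 20S alpha, 0.07 for 20S beta, 0.09 for the 19S base and 0.03 for both the 19S lid and the activators. How much of the members' shift goes with length was not tested further.

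**Figure D5:**
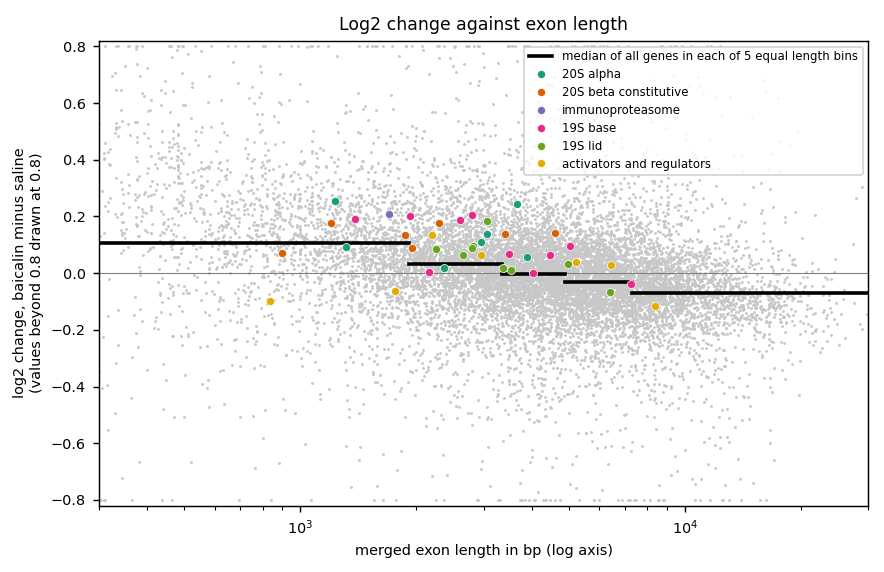
Log2 change, baicalin minus saline, against merged exon length in bp (log axis) for all genes tested (grey) and proteasome members (colour by class), with black bars for the median of all genes in each of 5 equal length bins. The bars step down from 0.11 to -0.07. Under TMM scaling 36 of 41 members lie above 0, against 49.8% of all genes. With equal sums of FPKM 22 do, against 29.8%.

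Other genes of the pathway were taken from fixed lists, and 0 of these 40 tested passed the adjusted threshold in edgeR. Over all genes tested 49.8% had positive log2 changes, and 6.34% were higher and 5.46% lower at an unadjusted p below 0.05 in edgeR. Of 7 genes for assembly chaperones and factors, 6 had positive log2 changes (median 0.11) and 2 an unadjusted p below 0.05. With the length trend subtracted 4 of these 7 were positive, against 48.8% of all genes, and their median was 0.014. Psmg1, which encodes a chaperone of alpha-ring assembly, stood at 11.5, 11.1 and 13.1 CPM with baicalin and 10.2, 8.27 and 8.21 CPM with saline, without overlap, with a log2 change of 0.42 ± 0.122 (unadjusted p = 0.0116, adjusted p = 0.348 in edgeR). Of 6 ubiquitin and E1 genes, 2 were higher and 1 lower at an unadjusted p below 0.05. The lower one was Uba6, an alternative ubiquitin-activating enzyme, at 10.5, 11.4 and 9.89 CPM against 14.5, 13.7 and 14.2 CPM (log2 change -0.41 ± 0.086, unadjusted p = 0.00224, adjusted p = 0.310 in edgeR). Of 3 genes of the p97 segregase, which extracts ubiquitinated proteins from complexes, Ufd1 had the smallest p, with a log2 change of 0.26 ± 0.091 (adjusted p = 0.388 in edgeR) and no overlap.

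Of 12 associated enzymes and shuttle factors, 4 had positive log2 changes, against 49.8% of all genes. The median was -0.04, and 0 had an unadjusted p below 0.05 in edgeR, against 6.34% of all genes higher and 5.46% lower. Rad23b, a shuttle that brings ubiquitinated substrates, was at 0.08 ± 0.045. Their median exon length was 6100 bp, and their median was 0.02 with the length trend subtracted. Nfe2l1, whose product induces proteasome genes when proteasome activity is low, stood at 45.2, 47.4 and 47.3 CPM with baicalin and 48.3, 48.5 and 48.2 CPM with saline. These groups did not overlap, but the log2 change was small, -0.05 ± 0.051 (unadjusted p = 0.350, adjusted p = 0.702 in edgeR). Of 6 genes for regulators of subunit transcription, 3 were positive and 3 negative. Antigen presentation genes, which act with the immunoproteasome, had 1 of 6 positive and a median of -0.03, with Tap2 at -0.18 ± 0.102 and 0 at an unadjusted p below 0.05.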

How the data were processed

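RNA was depleted of ribosomal RNA, fragmented and reverse transcribed from random primers, per the labels' protocols. The deposited table holds whole-number counts and FPKM values that the authors made for each gene and library. The submitters' processing notes name the build mm10 and, without roles or options, bcl2fastq 2.0, HISAT2, StringTie, limma and DESeq2. Another 12 columns of per-sample values, which fit no label, were left out. Counts of genes averaging 1 FPKM or more were TMM-scaled and modelled by treatment in edgeR 4.0.16 under R 4.3.3, with Benjamini-Hochberg adjustment over 13153 genes and a threshold of 0.05. Standard errors were taken as the absolute log2 change over the root of edgeR's F. CPM values use TMM-scaled library sizes. Alternatives used DESeq2 1.42.0, limma 3.58.1 on log2(FPKM + 1) or log2(FPKM + 0.1), other scalings and filters, a replicate block, each library left out and a loess trend on exon length (span 0.3) subtracted. Exon lengths are merged exons of GENCODE mouse release M21; coordinates are those of the deposited table. Copies of members were sought as transcripts sharing at least 100 runs of 31 bases. Named genes were members past the threshold, the 4 smallest p-values and the highest and lowest level in each class, all catalytic pairs and Psme1 to Psme3, Nfe2l1, and the gene with the smallest p in each further list. Other members named, Gm9774 and the overlapping genes were chosen after their values were seen. The members and lists were chosen with earlier results of these data known.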

Additional observations from a re-analysis of the deposited data

How the results depend on the processing

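The number of genes past the threshold was 6 in edgeR, 211 in DESeq2, 0 with a replicate block and 2 to 39 without 1 library (39 without baicalin library 1, 2 without baicalin library 3, 10 and 14 without saline libraries 2 and 3). The number of proteasome members past it was 0 in each of these except DESeq2, which gave 2. The replicate numbers gave correlations of deviations of 0.123, 0.080 and 0.012 for the same-numbered libraries and -0.102 to 0.036 for the others. The same-numbered value was the highest for each saline library, but not for baicalin library 3. The minimum set for pairing was 0.1, which only the libraries numbered 1 reached, and the libraries were not treated as pairs. With the replicate block the members' count stayed 0 and their median was 0.09. With equal sums of FPKM the median log2 change was 0.0077 over members and -0.08 over all genes. By class it was 0.031 for 20S alpha, 0.060 for 20S beta, 0.0036 for the 19S base, -0.014 for the 19S lid and -0.048 for activators and regulators. With the length trend subtracted it was 0.058 over members, 0.077 for 20S alpha and 0.072 for 20S beta. Without a filter the immunoproteasome median, then over Psmb8, Psmb9, Psmb10 and Psmb11 rather than Psmb10 alone, was 0.0038. Without 1 library the median over members was 0.07 to 0.10, that of the 19S base 0.06 to 0.12 (highest without baicalin library 1) and that of activators 0.0032 to 0.035 (lowest without saline library 2). The number of members higher at an unadjusted p below 0.05 in edgeR was 12 of 41 in the main fit, against 6.34% of all genes. It was 9 to 11 without 1 library, 8 with a replicate block and 2 with equal sums of FPKM, and DESeq2 gave 10. The share of all genes was not computed in these settings. The difference in log2 ratio was -0.42 to 0.15 for Psmb8 to Psmb5, -1.22 to -0.15 for Psmb9 to Psmb6 and -0.0066 to 0.14 for Psmb10 to Psmb7. The 16 alternatives reuse the same 6 libraries, and the share of all genes that kept their sign over them was not computed. Over all 16 alternatives 21 members kept a positive sign and Psme4 a negative one, as did Psme2b over the 15 that tested it. The cause of these differences was not tested.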
